A study of Rattus norvegicus with 8 samples.

Results

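The genes described here are the nuclear genes that encode the subunits of the mitochondrial respiratory chain and of ATP synthase, with cytochrome c and the few assembly factors that share their names. Rows of the count table were taken whose symbol begins with Nduf, Uqcr, Atp5, Cox4, Cox5, Cox6, Cox7 or Cox8, or is Sdha, Sdhb, Sdhc, Sdhd, Cycs or Cyc1, and whose mean level over the 8 rats was at least 1 CPM (counts per 1000000 of the column total). The names matched 98 of the 23487 rows, of which 84 reached 1 CPM and are the members, and all 84 also passed the filter on low counts that left 12124 genes for testing. Of the members, 34 belong to complex I, 4 to complex II, 11 to complex III with cytochrome c, 11 to complex IV, 14 to complex V, and 10 are assembly factors or other proteins. Altogether 73 of the 84 rows are subunits of a complex, and the 84 rows carry 83 symbols because Uqcrb has a pair of rows.

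RNA was sequenced from peritoneal macrophages that had been sorted by flow cytometry from 8-week-old Wistar rats, 15 days after an intraperitoneal injection. In 4 rats (numbers 3, 5, 10 and 11) the injected particles were MWCNT-XNRI-7, called CNT-7, needle-like multi-walled carbon nanotubes that cause mesothelioma in rats, and in 4 rats (numbers 1, 2, 12 and 13) they were CNT-T, tangled nanotubes that do not. The animals were females, the labels name no genetic alteration in either group, and both groups received particles, so each value is CNT-7 against CNT-T and not against an untreated cavity. Every library came from 1 rat. Below, values in individual rats follow this order of numbers.

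Complexes I to IV pass electrons from NADH and succinate to oxygen, complexes I, III and IV pump protons out of the mitochondrial matrix as they do so, and complex V uses the returning protons to make ATP. Complex I takes electrons from NADH, complex II from succinate, both hand them to ubiquinone, complex III moves them on to cytochrome c, and complex IV reduces oxygen. Most subunits are encoded in the nucleus and imported, and a small set is encoded by mitochondrial DNA, so that each complex other than II is built from both. In macrophages the balance between this chain and glycolysis is known to differ between inflammatory and tissue-resident states, and succinate and complexes I to III are also known as sources of signals and reactive oxygen in these cells.

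Library totals lay between 27195157 and 33732981 estimated counts, so that 3 counts, the level that a count of 0 still allows, corresponded to between 0.0887 and 0.109 CPM on the normalised scale. The members took between 0.895% and 1.05% of all counts in the 8 rats. Correlations of log2 CPM over all tested genes were 0.971 to 0.986 for pairs of rats within a group and 0.942 to 0.966 for pairs across groups. All 10 macrophage markers were tested. Their summed level was 15357 to 22510 CPM in the CNT-7 rats and 23831 to 34061 CPM in the CNT-T rats. These ranges do not overlap. Most of each sum was Lyz2, at 12196.8 to 19617.7 CPM with CNT-7 and 20528.8 to 30098.5 CPM with CNT-T. Lyz2 itself was not called (log2 fold change -0.47, edgeR adjusted p = 0.1002). With CNT-7, 2 of the 10 were called higher, Cd14 (log2 fold change 0.46) and Gata6 (0.30). The 4 called lower were Adgre1 (-1.13), Fcgr1a (-0.54), Cd68 (-0.34) and Csf1r (-0.33). Of the 6 T and NK cell markers present in the table, 3 were tested, 0 stood at 0 in every rat, and the summed level of the list was 10.5 to 12.6 CPM with CNT-7 and 2.02 to 3.46 CPM with CNT-T. The 2 called were higher with CNT-7, Cd8a (log2 fold change 2.74, edgeR adjusted p = 0.00102) and Cd2 (3.48, adjusted p = 0.000703), and Ncr1 was not called. Cd3d, Cd3e and Cd3g did not pass the filter and were each highest in CNT-7 rat 5, at 0.938, 2.11 and 1.27 CPM. Dendritic cell markers summed to 5.61 to 11.6 CPM with CNT-7 and 4.37 to 8.38 CPM with CNT-T, and 2 of the 3 tested were called higher with CNT-7, Ccr7 (log2 fold change 3.796, edgeR adjusted p = 0.0111) and Clec9a (1.76, adjusted p = 0.0262), while Zbtb46, the most abundant of the list in each rat, was not called. Neutrophil markers summed to 33.9 to 63.0 CPM with CNT-7 and 26.2 to 68.5 CPM with CNT-T, and 1 of the 5 tested was called, S100a8, lower with CNT-7 (-1.46, adjusted p = 0.0159). No marker of eosinophils, B cells or mesothelial cells passed the filter, but CNT-7 rat 3 stood apart in the eosinophil markers, at 9.33 CPM against 0.107 to 0.670 CPM in the other 7 rats, nearly all of it Ccr3. CNT-7 rat 5 stood apart in the B cell markers, at 2.78 CPM against 0.148 to 0.456 CPM in the other 7 rats. Erythroid markers were highest in CNT-7 rats 3 and 5, at 22.1 and 18.5 CPM, and lay between 0.429 and 9.99 CPM in the other 6 rats, and mast cell markers summed to at most 1.75 CPM. The part of these differences in the results below was not tested.

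Respiratory chain genes stood at nearly the same level in macrophages from CNT-7 and CNT-T rats. The edgeR quasi-likelihood test called 3 of the 84 members (3.57%) at an adjusted p under 0.10, beside 27.9% of all 12124 genes tested and 28.4% of the 11105 tested genes of at least 1 CPM. All 3 rose with CNT-7, where the background for higher calls was 13.9%, and 0 members were called lower, against a background of 14.0%. At an unadjusted p under 0.05 the count was 5. The 3 genes were Cox8a, a small subunit of complex IV, and Atp5mf and Atp5mc3, both in the membrane part of complex V, with log2 fold changes (CNT-7 over CNT-T) of 0.24, 0.22 and 0.21. No member was called with a change of at least 2-fold, beside 8.30% of all genes.

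The size of the differences was small and narrowly bounded. The median log2 fold change of the members was 0.041, beside 0.0083 for all genes tested, and the values ran from -0.27 (Ndufaf4) to 0.24 (Cox8a). Estimates lay above 0 for 57 of the 84 members, beside 6201 of the 12124 genes tested. Members can move together within a rat, so counts of estimates above 0, here and by complex, are descriptions and not tests of a direction. The median size of the change regardless of its sign was 0.073 among members and 0.19 among all genes, and the median standard error was 0.091 among members and 0.12 among all genes. The 95% interval lay wholly between -1 and 1 on the log2 scale for 84 of 84 members, against 77.6% of all genes, and between -0.5 and 0.5 for 81 of 84, against 51.6% of all genes. Of the 11105 tested genes of at least 1 CPM, 9207 lay within the wider and 6256 within the narrower limits, with a median standard error of 0.11. The members were not matched to other genes by level. The 3 exceptions to the narrower limits were Ndufb4, Ndufaf4 and Ndufa7, whose intervals were -0.86 to 0.90, -0.52 to -0.018 and -0.075 to 0.52. Read as bulk levels, these values cannot tell fewer cells of one kind from less RNA per cell.

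**Figure D1:**
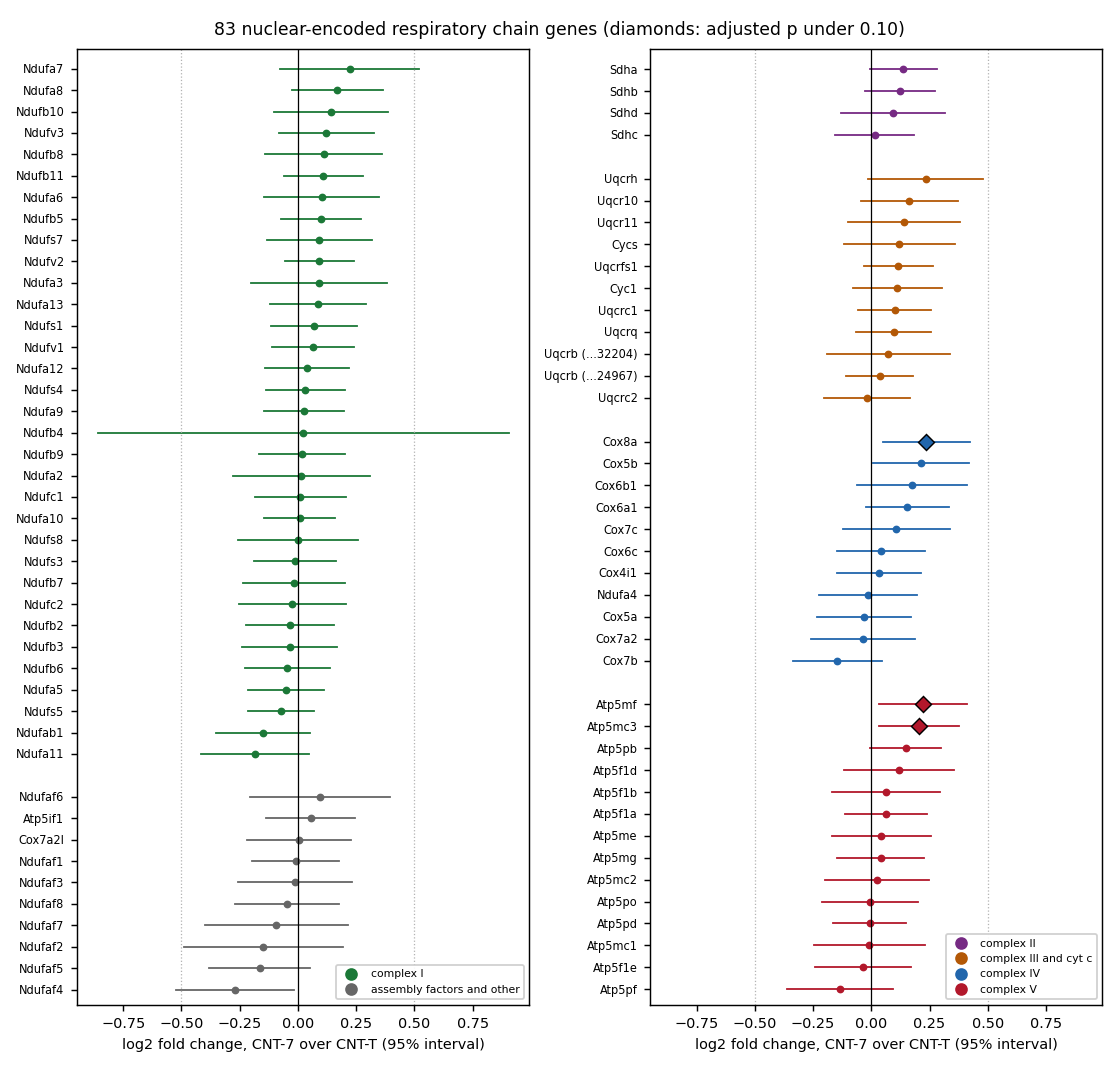
Log2 fold change of 83 of the 84 members (CNT-7 over CNT-T, x axis) with its 95% interval from the edgeR fit, grouped by complex, with diamonds for the 3 genes at an adjusted p under 0.10 and dotted lines at -0.5 and 0.5. Estimates lie between -0.27 and 0.24, and the Ndufb4 interval is the widest.

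The members varied little among the 4 rats of a group. The coefficient of variation had a median of 7.58% over the members in the CNT-7 rats and of 8.42% in the CNT-T rats, where the medians over tested genes of at least 1 CPM were 10.4% and 10.4%. It was under 20% for 83 of 84 members in each group, with Ndufb4 the exception in both. The ranges of both groups were separate for 5 of the 84 members, beside 24.9% of all genes, and in all 5 (Cox8a, Cox5b, Sdha, Sdhb and Atp5pb) the CNT-7 rats stood above the CNT-T rats, beside 12.3% of all genes in that direction.

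Promoters of the 3 called genes, of Cycs and of Sdhb are printed here because their members passed the test or carry the electrons, and because they show the short motifs through which nuclear respiratory genes are known to share regulation. Each window runs from 250 bases before to 50 bases after the RefSeq start, on the assembly GRCr8, which is not the assembly the reads were quantified on. Lines are written 5′ to 3′ on the strand of the gene, and capitals mark a match on either strand to 1 of 5 patterns, namely GCGCATGC (NRF1), CCGGAAGT (GABPA and other ETS factors), TCAAGGTCA (ERRA), AAGATGGC (YY1) and the box TATAAA that lies upstream of some starts, none of which contains another. The windows are chr1:213833574-213833873 on the minus strand for Cox8a, chr12:14535185-14535484 on the plus strand for Atp5mf, chr3:79220615-79220914 on the minus strand for Atp5mc3, chr4:80984718-80985017 on the minus strand for Cycs and chr5:158547684-158547983 on the plus strand for Sdhb.
Cox8a: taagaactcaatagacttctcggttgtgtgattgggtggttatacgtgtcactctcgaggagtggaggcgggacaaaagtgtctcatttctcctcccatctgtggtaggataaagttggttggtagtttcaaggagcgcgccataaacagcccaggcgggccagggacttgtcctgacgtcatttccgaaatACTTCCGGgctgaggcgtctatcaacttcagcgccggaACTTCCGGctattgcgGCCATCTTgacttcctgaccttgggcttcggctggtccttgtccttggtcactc
Atp5mf: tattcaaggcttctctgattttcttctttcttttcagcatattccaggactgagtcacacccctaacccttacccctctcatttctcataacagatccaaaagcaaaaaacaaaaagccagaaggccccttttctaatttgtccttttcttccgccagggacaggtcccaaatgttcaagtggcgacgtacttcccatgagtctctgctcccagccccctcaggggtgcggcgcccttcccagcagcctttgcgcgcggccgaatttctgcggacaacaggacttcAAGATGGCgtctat
Atp5mc3: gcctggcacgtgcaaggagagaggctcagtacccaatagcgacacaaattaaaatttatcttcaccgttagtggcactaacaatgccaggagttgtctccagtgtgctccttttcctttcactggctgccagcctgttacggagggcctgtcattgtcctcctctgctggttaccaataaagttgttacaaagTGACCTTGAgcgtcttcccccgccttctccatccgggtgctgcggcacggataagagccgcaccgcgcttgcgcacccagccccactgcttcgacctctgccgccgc
Cycs: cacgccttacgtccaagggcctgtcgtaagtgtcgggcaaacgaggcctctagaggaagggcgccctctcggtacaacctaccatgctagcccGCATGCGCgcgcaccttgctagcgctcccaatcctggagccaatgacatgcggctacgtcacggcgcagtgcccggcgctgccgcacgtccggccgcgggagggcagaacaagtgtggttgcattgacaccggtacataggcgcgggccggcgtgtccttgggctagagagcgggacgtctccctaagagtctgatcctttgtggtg
Sdhb: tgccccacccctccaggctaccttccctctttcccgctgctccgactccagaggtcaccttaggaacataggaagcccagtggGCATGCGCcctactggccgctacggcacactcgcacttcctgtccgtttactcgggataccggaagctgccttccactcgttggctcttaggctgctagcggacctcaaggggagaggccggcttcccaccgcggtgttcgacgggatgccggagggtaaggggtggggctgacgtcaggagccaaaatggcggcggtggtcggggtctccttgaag
The Cox8a window held the ETS pattern at 58 and at 20 bases before the start and the YY1 pattern at 4 bases before it. Atp5mf had the YY1 pattern at base 37 after the start, and Atp5mc3 had the ERRA pattern at 57 bases before it. Cycs and Sdhb each had the NRF1 pattern, at 157 and 167 bases before the start.

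Of the 83 member symbols, 73 had a window in the RefSeq promoter table, and 33 of these windows held at least 1 of the 5 patterns. The YY1 pattern was in 15 of the 73 (20.5%), where 5.61% of the 9841 windows of tested genes and 3.17% of all 33469 windows held it. NRF1 matches were in 11 (15.1%), beside 5.27% of tested windows and 2.47% of all. For the ETS pattern the count was 8 of 73, beside 8.54% and 3.81%, and for the ERRA pattern it was 2 (2.74%, Atp5mc3 and Sdhd), beside 0.335% and 0.433%. TATAAA was in 4 (5.48%), beside 6.95% and 14.2%. The members with a YY1 match had a median log2 fold change of 0.044 and those with an NRF1 match 0.041, next to 0.041 for all members. These are matches of letters in a window and not measured sites.

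Complex I, the NADH dehydrogenase that Nduf genes encode, had 34 members, of which none was called. The smallest adjusted p was 0.212 (Ndufa8, an accessory subunit, log2 fold change 0.17), and the median log2 fold change was 0.029, with 24 of 34 estimates above 0. The 7 core subunits, which hold the flavin and the iron-sulphur clusters, lay between -0.013 (Ndufs3) and 0.092 (Ndufs7), with a median of 0.066. Among the 27 accessory subunits, which surround that core, the median was 0.022, from -0.18 (Ndufa11) to 0.22 (Ndufa7).

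Ndufv1, which binds NADH and the flavin, stood at 77.4, 79.2, 72.1 and 88.1 CPM in the CNT-7 rats and at 78.9, 74.4, 79.6 and 69.8 CPM in the CNT-T rats. The ranges overlapped, with a log2 fold change of 0.066 (SE 0.079, 95% interval -0.11 to 0.24, adjusted p = 0.613). Ndufs1, the largest subunit of the complex and a carrier of iron-sulphur clusters, stood at 143, 119, 122 and 138 CPM and 114, 126, 126 and 131 CPM, with a log2 fold change of 0.069 (SE 0.082, 95% interval -0.11 to 0.25, adjusted p = 0.609).

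Both ends of the complex I range rested on few rats. Ndufa7 had 36.1, 41.6, 39.5 and 40.2 CPM in the CNT-7 rats and 40.98, 34.02, 34.8 and 24.95 CPM in the CNT-T rats. CNT-T rat 13 stood below the other 7, and without it the log2 fold change of Ndufa7 was 0.10 instead of 0.22, while without CNT-T rat 1 it was 0.33 and passed the threshold (adjusted p = 0.0971). Ndufa11, a membrane subunit next to complex III in the supercomplex, had 64.9, 64.5, 61.8 and 67.4 CPM with CNT-7 and 80.9, 83.7, 69.3 and 59.8 CPM with CNT-T. CNT-T rat 13 was again the lowest, here within the group that stood higher, and without it Ndufa11 was called lower with CNT-7 (log2 fold change -0.27, adjusted p = 0.0499), the single member called in that setting.

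Ndufb4, an accessory subunit of the membrane arm, differed from all other members in its spread. It stood at 19.97, 40.7, 69.9 and 17.7 CPM in the CNT-7 rats and 30.2, 40.4, 29.5 and 45.8 CPM in the CNT-T rats, so that its lowest and its highest value were both in the CNT-7 group. Its coefficient of variation was 65.4% with CNT-7 and 21.9% with CNT-T, its log2 fold change was 0.022 (SE 0.39), and leaving out 1 rat at a time moved that value between -0.48 and 0.25. RefSeq lists 11 other rat loci named as copies of Ndufb4, 7 of them pseudogenes. Estimated counts may be divided between them if the sequences used for quantification held them, which was not checked here for any member. The values of Ndufb4 are therefore uncertain, and whether copies bear on its spread was not tested.

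Of the complex I rows that the name rule matched, 3 were at 0 counts in all 8 rats, namely Ndufs6, Ndufa1 and Ndufa10l1. Ndufs6 and Ndufa1 are subunits that complex I is known to need in every cell, so a listed 0 here is not read as absence of the transcript, and the cause of these zeros was not tested.

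Complex II, the succinate dehydrogenase of the tricarboxylic acid cycle, has its 4 subunits all encoded in the nucleus, and all 4 estimates were above 0 with a median of 0.11, while none was called. Sdha, the flavoprotein that oxidises succinate, stood at 184, 168, 167 and 177 CPM in the CNT-7 rats and 162, 162, 159 and 150.1 CPM in the CNT-T rats. Each CNT-7 rat was above each CNT-T rat, with a log2 fold change of 0.14 (SE 0.064, 95% interval -0.0061 to 0.28, adjusted p = 0.168). Sdhb, the iron-sulphur subunit, likewise had separate groups at 83.4, 81.2, 89.9 and 83.3 CPM and 80.98, 79.9, 77.9 and 71.1 CPM, with a log2 fold change of 0.12 (SE 0.067, 95% interval -0.025 to 0.27, adjusted p = 0.229). The gap between the nearest rats of the 2 groups was small for both genes, and neither passed the threshold in any of the 14 alternatives of scaling, filter, model and left-out rat.

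Sdhc and Sdhd anchor complex II in the membrane and bind ubiquinone. Sdhc stood at 108, 92.00, 91.3 and 100.1 CPM with CNT-7 and 92.04, 102, 93.8 and 99.5 CPM with CNT-T, and its log2 fold change was 0.015 (95% interval -0.15 to 0.19, adjusted p = 0.912). Sdhd had 191, 144, 150.1 and 180.3 CPM and 158, 167, 152 and 147 CPM, and its log2 fold change was 0.094 (95% interval -0.13 to 0.32, adjusted p = 0.564). The groups overlapped for both, and CNT-7 rats 3 and 11 were the 2 highest rats for Sdhd.

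Complex III, the cytochrome bc1 complex, and cytochrome c had 10 of 11 estimates above 0 and a median log2 fold change of 0.11, again with none called. Cycs, the soluble carrier that takes electrons from complex III to complex IV and that also starts apoptosis when released, stood at 194, 166, 211 and 210.0 CPM in the CNT-7 rats and 157, 206, 175 and 180.1 CPM in the CNT-T rats. Its groups overlapped widely, with a log2 fold change of 0.12 (SE 0.11, 95% interval -0.12 to 0.36, adjusted p = 0.475). Cyc1, the haem subunit that passes electrons to cytochrome c, had 78.3, 65.9, 70.7 and 75.5 CPM and 68.2, 75.5, 61.2 and 63.9 CPM, and its log2 fold change was 0.11 (95% interval -0.080 to 0.30, adjusted p = 0.409).

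The estimate furthest from 0 in complex III was that of Uqcrh, the hinge subunit that contacts Cyc1. Uqcrh stood at 264, 201, 235 and 219 CPM with CNT-7 and 199, 219, 199.6 and 164 CPM with CNT-T, with a log2 fold change of 0.23 (SE 0.11, 95% interval -0.013 to 0.48, adjusted p = 0.172). CNT-7 rat 3 was the highest and CNT-T rat 13 the lowest of the 8 rats. Uqcrfs1, the Rieske iron-sulphur protein, and the core proteins Uqcrc1 and Uqcrc2 had log2 fold changes of 0.12, 0.10 and -0.018, the last being the single estimate below 0.

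Uqcrb, which binds ubiquinone in complex III, had 2 rows in the table under separate Ensembl identifiers. ENSRNOG00000024967 had 53.6, 53.4, 58.5 and 52.9 CPM with CNT-7 and 52.7, 52.9, 56.5 and 50.8 CPM with CNT-T, and ENSRNOG00000032204 had 53.2, 41.4, 43.4 and 44.6 CPM and 45.1, 51.1, 41.04 and 36.2 CPM. The rats were not ordered alike in both rows, CNT-7 rat 10 being highest in the first and CNT-7 rat 3 in the second. RefSeq lists 4 other rat loci named as copies of Uqcrb, of which 2 are pseudogenes, and it is uncertain how reads were divided between the rows. Log2 fold changes were 0.037 and 0.074, and neither row was called. When both rows were added together, an alternative chosen after the data were seen, the count of called members stayed at 3.

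Complex IV, cytochrome c oxidase, had 1 called member among 11 and a median log2 fold change of 0.042, with 7 estimates above 0. Cox8a (ENSRNOG00000021177) stood at 173, 157, 162 and 171 CPM in the CNT-7 rats and 154, 128, 152 and 128 CPM in the CNT-T rats, means of 166 and 140.5 CPM. The groups were separate, the nearest rats being CNT-7 rat 5 and CNT-T rat 1, and the rise was 1.18-fold, with a log2 fold change of 0.24 (SE 0.084, 95% interval 0.049 to 0.42, adjusted p = 0.0756). The call was held in 7 of 14 alternatives. It was lost without any 1 of the 4 CNT-7 rats (adjusted p of 0.102 to 0.167), without CNT-T rat 2 (0.182) or rat 13 (0.157), and without the filter on low counts (0.106), with a log2 fold change between 0.19 and 0.28 throughout.

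Cox5b, a matrix-side subunit that binds zinc, had separate groups too, at 169, 173, 178 and 171 CPM and 165, 153, 156 and 123 CPM, and missed the threshold, with a log2 fold change of 0.21 (SE 0.092, 95% interval 0.0061 to 0.42, adjusted p = 0.139). CNT-T rat 13 lay well below the other 7 rats, and without it the log2 fold change was 0.13, while without CNT-T rat 1 it was 0.26 and passed the threshold (adjusted p = 0.0863). At the other end, Cox7b had 179.9, 141, 145 and 160.1 CPM with CNT-7 and 169, 179, 171 and 174 CPM with CNT-T, with a log2 fold change of -0.15 (SE 0.085, 95% interval -0.34 to 0.045, adjusted p = 0.267). Its highest value was in CNT-7 rat 3, and without that rat Cox7b was called lower (log2 fold change -0.22, adjusted p = 0.0865).

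Several complex IV subunits exist as isoforms, of which the ubiquitous or liver form is known from most tissues and the others from heart, muscle, lung or testis. In these macrophages 1 form of each pair or triplet reached 1 CPM. Cox4i1, the regulatory subunit on which ATP acts, stood at 410.1, 363, 372 and 352 CPM and 396, 361, 375 and 332 CPM (log2 fold change 0.033, 95% interval -0.15 to 0.21), while its hypoxia- and lung-associated isoform Cox4i2 had 2 counts over all 8 libraries. Cox6a1 stood at 149, 152, 155 and 150.0 CPM and 149.6, 139, 137 and 118 CPM (log2 fold change 0.16, 95% interval -0.021 to 0.33, adjusted p = 0.203), and its heart and muscle isoform Cox6a2 had 2 counts. Cox7a2 stood at 117, 94.7, 100.0 and 108 CPM and 94.3, 120.2, 116 and 101 CPM (log2 fold change -0.036, 95% interval -0.26 to 0.19), and Cox7a1, the heart and muscle form, had 6 counts.

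For Cox6b1, which sits where 2 oxidase monomers meet, the main row stood at 252, 214, 223 and 226 CPM and 204, 236, 203 and 168 CPM (log2 fold change 0.17, 95% interval -0.062 to 0.41, adjusted p = 0.287). A further row named Cox6b1 held 17 counts in all, and the testis isoform Cox6b2 was at 0 in every rat. Beside Cox8a, the muscle isoform Cox8b was at 0 and the testis isoform Cox8c had 3 counts. Ndufa4, once counted with complex I and now known as a complex IV subunit, stood at 83.6, 72.9, 79.3 and 81.8 CPM and 82.4, 82.6, 88.8 and 66.5 CPM (log2 fold change -0.012, 95% interval -0.22 to 0.20), and its hypoxia-induced relative Ndufa4l2 had 1 count. Cox7b2 and Cox6c-ps1 were at 0. These totals are at or near the floor of 3 counts per library, which covers counting error only, so no fold is given for them.

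**Figure D2:**
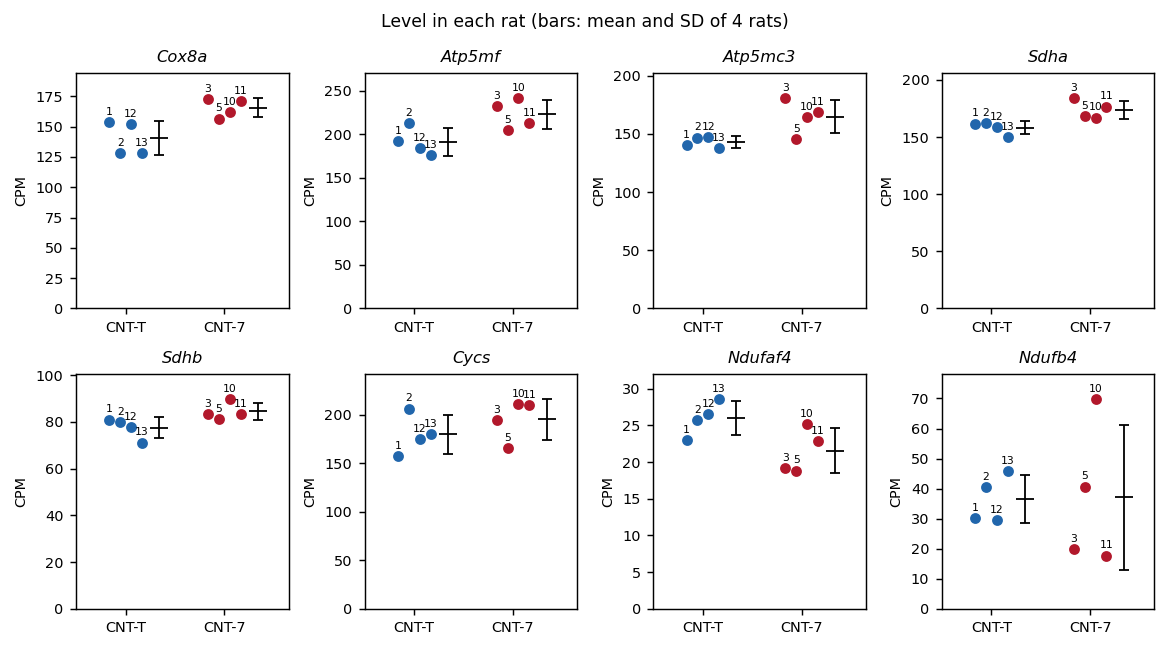
Level in CPM (y axis from 0) of 8 members in each of the 8 rats (points with rat numbers) with the mean and SD of the 4 rats beside them. Cox8a, Sdha and Sdhb have separate groups, Atp5mf, Atp5mc3, Cycs and Ndufaf4 overlap, and Ndufb4 has its lowest and highest rats in the CNT-7 group.

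Complex V, the ATP synthase, had 2 called members among 14 and a median log2 fold change of 0.042, with 9 estimates above 0. Atp5mf (ENSRNOG00000027049), a small subunit of the membrane sector, stood at 232, 205, 241 and 213 CPM in the CNT-7 rats and 192, 212, 184 and 176 CPM in the CNT-T rats. CNT-T rat 2 lay level with CNT-7 rat 11 and above CNT-7 rat 5, so the groups overlapped, and the rise was 1.17-fold, with a log2 fold change of 0.22 (SE 0.084, 95% interval 0.032 to 0.41, adjusted p = 0.0957). Atp5mc3 (ENSRNOG00000001596), 1 of the 3 genes for the c subunit that forms the rotating ring, stood at 181, 146, 165 and 169 CPM and 140.1, 147, 147 and 138 CPM. CNT-7 rat 5 lay among the CNT-T rats, and the rise was 1.15-fold, with a log2 fold change of 0.21 (SE 0.077, 95% interval 0.033 to 0.38, adjusted p = 0.0912).

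Both calls depended on the setting. Atp5mf was called in 6 of 14 alternatives and Atp5mc3 in 4, with adjusted p of up to 0.217 and 0.221. Both lost it in the model that also separates low from high rat numbers (adjusted p of 0.105 for Atp5mf and 0.111 for Atp5mc3) and without the filter on low counts (0.129 and 0.130), and Atp5mc3 also without a normalization factor (0.108). Atp5mf lost the call without CNT-7 rat 3, 10 or 11 (adjusted p of 0.106 to 0.204) and without CNT-T rat 1, 12 or 13 (0.140 to 0.217). Atp5mc3 lost it without any single rat other than CNT-7 rat 5 (0.138 to 0.221), whose removal gave a log2 fold change of 0.26 (adjusted p = 0.0426). The log2 fold change stayed between 0.18 and 0.27 for Atp5mf and between 0.16 and 0.26 for Atp5mc3.

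The other c subunit genes encode the same mature protein with other import sequences, and neither was called. Atp5mc1 stood at 99.7, 84.6, 92.8 and 95.1 CPM with CNT-7 and 98.4, 107, 93.4 and 75.4 CPM with CNT-T (log2 fold change -0.0077, 95% interval -0.25 to 0.23). Atp5mc2 had 248, 211, 225 and 209.7 CPM and 246, 229, 219.7 and 184 CPM (log2 fold change 0.025, 95% interval -0.20 to 0.25). Their intervals overlap that of Atp5mc3, and the difference between the 3 genes was not tested. The 6 membrane subunits had a median of 0.042, from -0.0077 to 0.22, and Atp5md, also of the membrane sector, was listed at 0 in every rat, a value whose cause was not tested.

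In the catalytic F1 head, which makes the ATP, the 4 members had a median log2 fold change of 0.063. Atp5f1b, the catalytic beta subunit, stood at 888, 711, 713 and 897 CPM with CNT-7 and 722, 844, 749.5 and 756 CPM with CNT-T, with a log2 fold change of 0.064 (SE 0.10, 95% interval -0.17 to 0.29, adjusted p = 0.717). CNT-7 rats 3 and 11 were above and CNT-7 rats 5 and 10 below all 4 CNT-T rats. Atp5f1a, the alpha subunit, had 579, 525, 517 and 612 CPM and 528, 565, 539 and 505 CPM (log2 fold change 0.063, 95% interval -0.11 to 0.24).

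The 4 subunits of the peripheral stalk, which holds the head still, had a median of -0.0066. Atp5pb had separate groups at 319, 292, 298 and 317 CPM and 284, 255, 284 and 284 CPM, with a log2 fold change of 0.15 (SE 0.069, 95% interval -0.0071 to 0.30, adjusted p = 0.169). CNT-T rat 2 was the lowest and the other 3 CNT-T rats lay within 1 CPM of each other. Atp5pf lay at the other end, with 188, 146, 154 and 172 CPM and 158, 200.2, 185 and 179.6 CPM, with a log2 fold change of -0.13 (SE 0.10, 95% interval -0.36 to 0.095, adjusted p = 0.407).

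Among the groups of members, the assembly factors and other proteins were the one with estimates mostly below 0 (3 of 10 above 0). The 46 tested assembly factors outside the Nduf names, which are not members, had 24 estimates above 0. Of the 8 Ndufaf genes, whose products help to build complex I without staying in it, 1 estimate (Ndufaf6) was above 0, the median was -0.070, and none was called. Ndufaf4, a factor for the peripheral arm, stood at 19.2, 18.8, 25.2 and 22.9 CPM in the CNT-7 rats and 23.05, 25.7, 26.5 and 28.6 CPM in the CNT-T rats. CNT-7 rats 3 and 5 were the lowest, CNT-7 rat 10 lay among the CNT-T rats, and the test gave a log2 fold change of -0.27 (SE 0.11, 95% interval -0.52 to -0.018, adjusted p = 0.125). It was called lower by DESeq2 (adjusted p = 0.0994), in a model that also separates low from high rat numbers (0.0420), and without CNT-7 rat 10 (0.0490) or CNT-T rat 1 (0.0862). RefSeq lists 5 pseudogenes named after Ndufaf4. Such copies are common among the members, being listed for 46 of the 83 symbols, so the doubt on divided reads is not particular to Ndufaf4, Ndufb4 and Uqcrb. It also holds for Atp5mf (3 copies), Atp5mc2 (6) and Cycs (10), while Cox8a and Atp5mc3 have none listed. Copies were found by name only, so none listed does not mean that none exists. Atp5mg, with 11 copies as for Ndufb4, had a coefficient of variation of 8.00% with CNT-7 and 7.65% with CNT-T. Whether copies bear on the spread of either gene was not tested. Atp5if1, which blocks ATP synthase when it runs backwards, stood at 166, 187, 199.5 and 173 CPM and 184, 184, 176 and 155 CPM (log2 fold change 0.054, 95% interval -0.14 to 0.24). Cox7a2l, which links complexes III and IV into supercomplexes, had 187, 183, 172 and 152 CPM and 198, 162, 179.5 and 154 CPM (log2 fold change 0.0048, 95% interval -0.22 to 0.23).

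Summed over its members, each complex had overlapping groups. Complex I summed to 2241, 2134, 2304 and 2210.1 CPM in the CNT-7 rats and 2217, 2248, 2188 and 1989.6 CPM in the CNT-T rats, a ratio of group means of 1.03. Complex II summed to 566, 486, 498 and 540.3 CPM and 492, 511, 483 and 467 CPM, a ratio of 1.07. Complex III with cytochrome c summed to 1336, 1172, 1261 and 1263 CPM and 1169, 1233, 1165 and 1077 CPM, a ratio of 1.08. In each of these CNT-T rat 13 was the lowest of the 8 rats. Complex IV summed to 2128, 1838, 1936 and 1977 CPM and 1897, 1942, 1951 and 1728 CPM, a ratio of 1.05, and complex V to 3636, 3120.2, 3239.7 and 3521 CPM and 3241, 3433, 3250.3 and 3024 CPM, a ratio of 1.04. CNT-7 rat 3 had the highest sum in complexes II to V, and CNT-T rat 13 the lowest sum in all 5. The assembly factors and other proteins summed to 467, 475, 485 and 433 CPM and 493, 464, 478 and 425 CPM, a ratio of 0.999. No p-value is given for such sums.

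**Figure D3:**
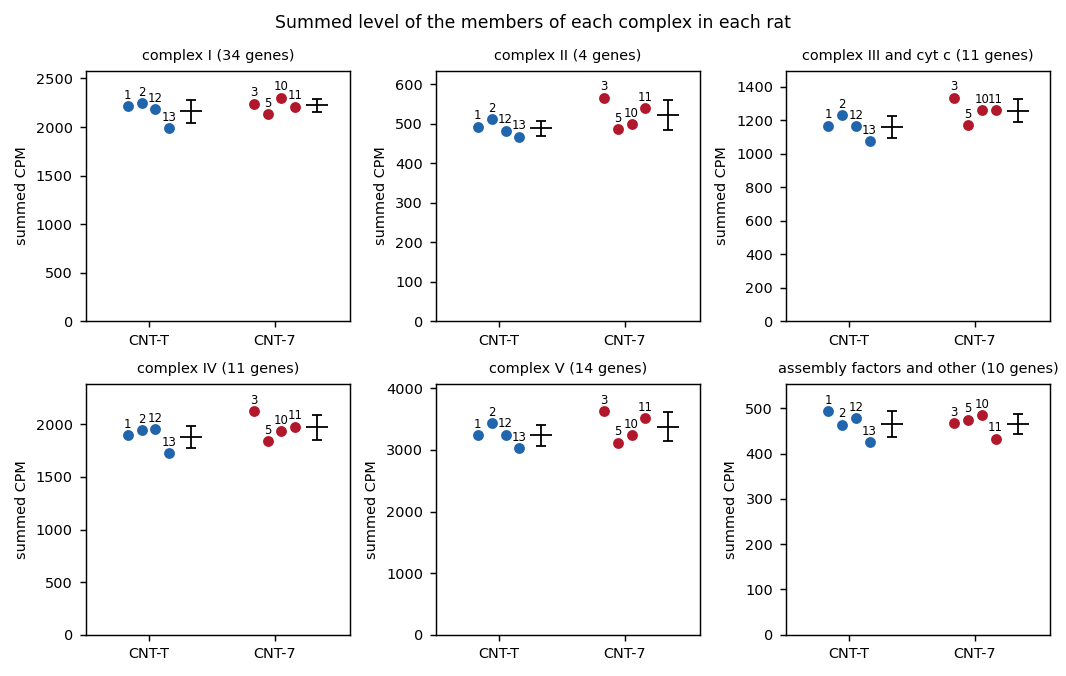
Summed CPM of the members of each complex (y axis from 0) in each rat (points with rat numbers), with the mean and SD of the 4 rats of a group. CNT-T rat 13 has the lowest point in every panel and CNT-7 rat 3 the highest in complexes II to V.

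The size of the small lean of the members towards CNT-7 depended on single rats. CNT-T rat 13 was the lowest of the 8 rats for 45 of the 84 members (53.6%), and for 2038 of the 12124 genes tested (16.8%). CNT-7 rat 3 was the highest for 26 members (31.0%), and for 9.15% of all genes. CNT-T rat 13 had the smallest library, 27195157 counts, and the highest TMM factor of the 8, 1.03. Without it the median log2 fold change of the members was 0.015, with 48 of 84 estimates above 0 in place of 57, and none of the 3 genes was called. By complex the median without it was 0.013 for I, 0.074 for II, 0.077 for III with cytochrome c, 0.045 for IV and -0.012 for V. Without CNT-7 rat 3 the median of the members was 0.018, with 46 estimates above 0. Both rats were picked as extremes of these same members, so a smaller lean without them was built in. Leaving out CNT-T rat 2 or CNT-7 rat 5 instead gave larger medians, 0.070 and 0.064, with 65 and 63 estimates above 0. The median stayed above 0 whichever rat was left out. CNT-7 rat 3 is also the rat with the highest eosinophil and erythroid markers, at 9.33 and 22.1 CPM, and the part of these in its member levels was not tested. Why CNT-T rat 13 differs was not tested either.

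**Figure D4:**
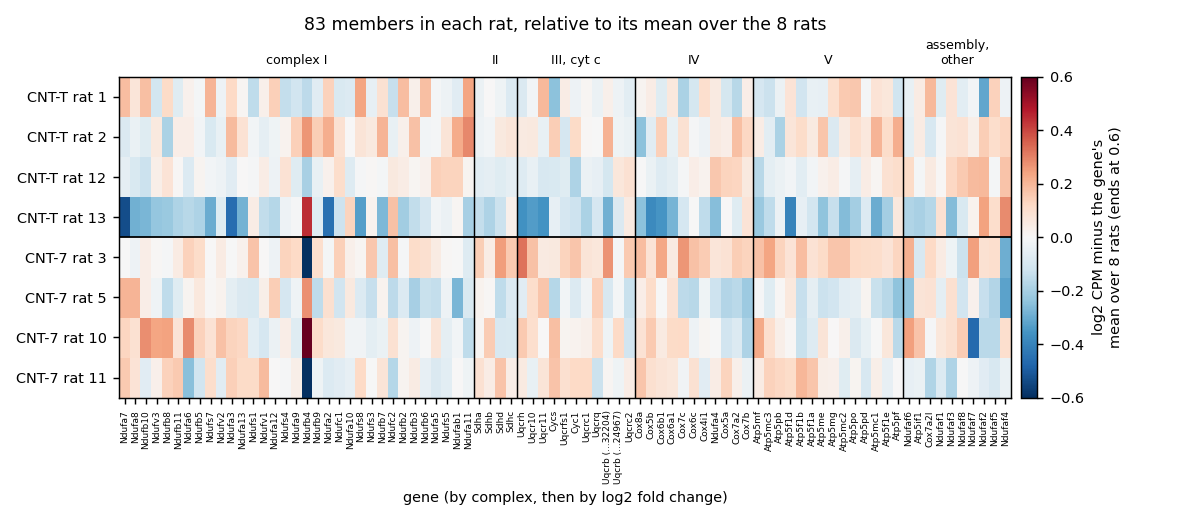
83 of the 84 members (columns, by complex) in each rat (rows) as log2 CPM minus the mean of the gene over the 8 rats, with the colour scale ending at -0.6 and 0.6. The row of CNT-T rat 13 is blue for most members, the row of CNT-7 rat 3 is red for many of complexes II to V, and Ndufb4 shows the strongest colours.

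The 13 subunits that mitochondrial DNA encodes for complexes I, III, IV and V ranked the rats differently from the nuclear members. None of the 13 was called, their median log2 fold change was -0.20, from -0.56 (ND6) to 0.052 (ND3), and 3 estimates were above 0. Their summed level was 40665, 31426, 38943 and 32864 CPM in the CNT-7 rats and 41642, 29731, 39581 and 41753 CPM in the CNT-T rats. CNT-T rat 13, lowest for the nuclear members, was highest here, at 4.29% of its counts, and CNT-T rat 2 was lowest, at 2.98%. Their median standard error was 0.14, above the 0.091 of the nuclear members, and their 95% intervals reached from -1.15 to 0.36, so a missed threshold does not show that the groups were alike. The lower bound came from ND6, the least abundant of the 13 at 32.2 to 94.8 CPM. ND6 also had the largest standard error of the list (0.26).

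Genes that build and serve the chain but are not named by the rule were called in both directions, at shares below the 27.9% of all genes. Of 46 tested assembly factors outside the Nduf names, 3 rose and 4 fell (15.2%), with a median of 0.0084. Cox11, which inserts copper into complex IV, rose (log2 fold change 0.60), and Bcs1l, which inserts the Rieske protein into complex III, and Tmem126a, a complex I assembly factor, fell (-0.54 and -0.39). Among 19 genes of ubiquinone and related electron carriers, 2 rose and 2 fell (21.1%), with a median of -0.017. Coq7, an enzyme of ubiquinone synthesis, fell (-0.44), and Etfdh, which passes electrons from fatty acid oxidation to ubiquinone, and Coq8b rose (0.38 and 0.38).

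Regulators of mitochondrial gene expression gave a similar picture, with 2 of 22 tested higher and 2 lower (18.2%), and a median of -0.025. Ppargc1b, a coactivator of mitochondrial genes, and Esrra, a nuclear receptor for the same genes, rose (0.61 and 0.37), and Nrf1 fell (-0.29). Of 24 genes for other abundant mitochondrial proteins, 1 was called, Letm1, an inner membrane ion exchanger, higher at 0.21, and the median of the list was -0.0095.

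Of 75 mitochondrial ribosomal protein genes 1 rose (Mrps6, 0.43) and 6 fell, Mrpl14 (-0.37) and Mrpl18 (-0.35) the most, with a median of -0.027. Cytosolic ribosomal protein genes, from which the kinases named Rps6k were left out, had 1 higher (Rps27l, 0.29) and 5 lower among 78, Rpl36a the most (-0.37), and a median of -0.14. The proliferation genes stood apart, with 18 of 18 lower and a median of -1.16, the 3 furthest being Top2a (-1.68), Mki67 (-1.64) and Cdk1 (-1.40). The call rate was 3.57% for the nuclear respiratory chain genes and 0% for the mitochondrially encoded ones, 7.69% and 9.33% for the cytosolic and mitochondrial ribosomal proteins, 4.17% for the other abundant mitochondrial proteins, 15.2%, 18.2% and 21.1% for assembly factors outside the Nduf names, regulators and electron carriers, and 100% for the proliferation genes, beside 27.9% of all genes in the same 8 rats and the same fit.

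**Figure D5:**
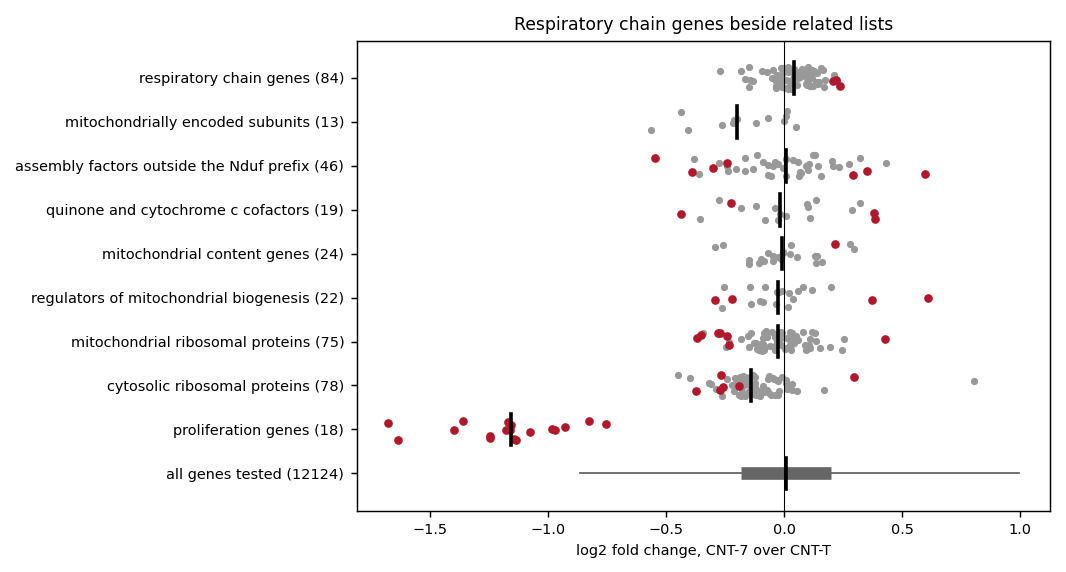
Log2 fold change (x axis) of each tested gene in the respiratory chain and in 8 related lists (rows, number of genes in brackets), with red points for an adjusted p under 0.10 and black bars for medians. For all genes tested the thick bar spans the middle 50% and the thin line the middle 90%, and proliferation genes lie at -0.75 or lower while the respiratory chain genes lie within -0.27 and 0.24.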

How the data were processed

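RNA-seq of sorted peritoneal macrophages from 4 CNT-7 and 4 CNT-T rats was used, with groups and rat numbers taken from the sample titles and source names. The authors ran the ARMOR workflow (FastQC, Salmon against the Ensembl cDNA sequences of Rnor_6.0, tximeta), whose Salmon version is not given in the sources used here. The authors deposited estimated counts per gene as whole numbers, without normalization, for 23487 rows, and all its 8 columns were used. Reads shared by similar transcripts are divided by estimation, so genes with close copies are uncertain. Libraries were stranded and selected for mRNA, and had no molecular identifiers, so floors cover counting error only.

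All genes were fitted together in R 4.3.3 by edgeR 4.0.16 (quasi-likelihood), with group as the single term, TMM normalization, the filterByExpr filter (minimum count 10, minimum total 15) and Benjamini-Hochberg adjustment over the 12124 genes that passed. Calls were made at an adjusted p under 0.10, the threshold of the study. CNT-7 is the numerator of each fold change, CPM values use TMM-scaled library sizes, and the 1 CPM limit for members used column totals. P-values set the difference between the groups against the spread between rats within a group. Alternatives were DESeq2 1.42.0, other scalings and filters, a threshold of 0.05, a second term for low (1 to 5) or high (10 to 13) rat numbers, and each rat left out. The script was tested on simulated data shaped on the CNT-7 against CNT-T comparison with 12017 genes tested, in which 140 of 156 genes changed at a log2 fold of 1 or 2 were called and 2 of 38 at 0.25.

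The members, lists and motifs were chosen with earlier results of these data known. Genes given with their own values were called members with separate groups, the Sdh genes, Cycs, Cyc1 and the isoform families, and in other lists up to 3 called genes furthest from 0. Ndufa7, Ndufa8, Ndufa11, Ndufb4, Ndufv1, Ndufs1, Ndufaf4, Uqcrh, Uqcrb, Cox5b, Cox7b, Atp5mf, Atp5f1a, Atp5f1b, Atp5pb, Atp5pf and Atp5if1 were added after their values were seen. Uqcrfs1, Uqcrc1, Uqcrc2 and Atp5mg are also given with values and fall under none of the rules above. Others are named only as the ends of a range. The values of 1 complex I member are not reported here, and the plots by gene leave it out, while counts, medians and sums include it. Promoter windows and gene copies came from RefSeq tables of GRCr8, matched by symbol, and no coordinates were carried between assemblies. Cytosolic ribosomal protein genes were taken by name, without the Rps6k kinases.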

Additional observations from a re-analysis of the deposited data

Results flagged for a closer look

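Among 34 items examined in groups of 4 rats, 1 value was flagged as far from the other 3. The items did not take in every member. Atp5pb, for example, was not flagged, although CNT-T rat 2 stood at 255 CPM and the other CNT-T rats at 283.8 to 284.1 CPM. For the Uqcrb row ENSRNOG00000024967, CNT-7 rat 10 stood at 58.5 CPM and the other CNT-7 rats at 52.9 to 53.6 CPM, so that its gap to the nearest rat was 0.866 of the range of the group, above the 95% limit of Dixon's ratio for 4 values. Chance gives such a value in about 1 of 20 groups, or 3.4 of the 68 groups examined. Leaving CNT-7 rat 10 out moved the log2 fold change of this row to 0.0042, and it was not called in any setting.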

How the results depend on the processing

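The count of members called higher, 3 in the main fit, stayed at 3 with DESeq2, with upper-quartile scaling, with at least 10 counts in every rat and with both Uqcrb rows summed, an alternative chosen after the data were seen. It was 1 with a second term for low or high rat numbers (1 in complex IV and 0 in complex V), 0 without a filter on low counts and 0 at an adjusted p under 0.05 (0 in complexes IV and V in both). Without a normalization factor complex V had 1 call. Members called lower, 0 in the main fit, were 1 with DESeq2 and 1 with the term for rat numbers, Ndufaf4 each time, which made 1 call among the assembly factors in both. Leaving out 1 rat at a time gave 0 to 3 members higher and 0 to 1 lower, 0 to 1 called in complex I, 0 to 2 in complex IV, 0 to 2 in complex V and 0 to 1 among the assembly factors, and 0 in complexes II and III throughout. The median log2 fold change of the members stayed between 0.015 and 0.070, and no named gene that was called changed direction. The count over all genes ranged from 2507 to 3633. No paired analysis was possible because the groups share no rat number. In the simulated data 2 of 38 changes of 0.25 on the log2 scale were called, with 194 changed genes among 12017. In these data 3383 of 12124 genes were called, and the cut on the unadjusted p depends on that share. The simulated share at 0.25 is therefore no measure of how many such changes were missed here. With 4 rats a group, changes of this size may still be missed.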
